A study of Mus musculus with 18 samples.

Results

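The Bcl2 family decides whether a stressed cell keeps its mitochondria intact, and 10 of its genes were followed here in mouse naive CD4+ T cells that were fresh, rested in culture or stimulated through the T cell receptor. The 10 genes were chosen by symbol, as the listed family rows of the deposited table: Bcl2, Bcl2l1, Mcl1, Bcl2a1b, Bcl2l11, Bax, Bak1, Bbc3, Pmaip1 and Bid. They are 10 of 15137 gene symbols, and all 10 were among the 10877 genes tested, which reached a linear value of 10 in no fewer than 3 of the 18 libraries. The study compared T cells lacking Creld1, an endoplasmic reticulum membrane protein, with control cells by RNA sequencing. All mice were C57BL/6J, and splenic CD3+CD4+CD25-CD62L+CD44- cells were taken by flow sorting. Control and Creld1 conditional knockout (cKO) cells were sequenced directly after isolation (fresh), after 8 h in culture without stimulation (unstimulated), and after 8 h with anti-CD3 and anti-CD28 antibodies at 1 µg/ml (stimulated), with 3 libraries in each of the 6 groups. In the cKO mice the deletion was driven by CD4-Cre, which is active from the thymic stage at which both CD4 and CD8 T cells arise, so both T cell lineages are targeted. Which alleles the control mice carry, and how old the mice were, the sources used here do not say. The culture medium was IMDM with serum, and the labels name no added cytokine. Within a group the 3 libraries carry the same mouse number, so the p-values below weigh differences against a spread between libraries that may be technical and not between animals.

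The family works in 3 tiers. Guardians such as Bcl2, Bcl-xL (Bcl2l1), Mcl1 and A1 (Bcl2a1b) hold the effectors Bax and Bak1 in check, and the BH3-only proteins Bim (Bcl2l11), Puma (Bbc3), Noxa (Pmaip1) and Bid bind the guardians or activate the effectors. Once free, Bax and Bak1 permeabilise the outer mitochondrial membrane, cytochrome c leaks out and caspases are activated. In naive T cells, interleukin 7 and contacts of the T cell receptor with self peptides sustain Bcl2, loss of these signals leads to death through Bim, and activation through the receptor induces A1. These points are background from textbook knowledge and were not measured here.

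A1 is a small gene family in the mouse, and its copies can share reads. Promoter stretches of the copies are shown first, which do not themselves show that reads are shared. A stretch of 30 bases upstream of the RefSeq start of Bcl2a1b (GRCm38.p6) recurs at the other 3 copies on chromosome 9. The GENCODE start of Bcl2a1b, given below, is a different one and directly follows the stretch. The capitals mark the place where Bcl2a1b, Bcl2a1c and Bcl2a1d hold the letters of the EGR motif GCGTGGGCG on the opposite strand, and the aligned bases of Bcl2a1a, which do not match it. The motif is the binding sequence of a family of transcription factors induced by T cell receptor signalling.
Bcl2a1b (chr9:89199179-89199208, plus strand): gctttcacagacCGCCCACGCacataagtg
Bcl2a1a (chr9:88956870-88956899, plus strand): gctttcacagacCGCCCATGCacataagtg
Bcl2a1c (chr9:114329975-114330004, plus strand): gctttcacagacCGCCCACGCacataagtg
Bcl2a1d (chr9:88731871-88731900, minus strand): gctttcacagacCGCCCACGCacataagtg
The window of Bcl2a1a differs from that of Bcl2a1b by C19T, counted from 1 at the 5′ end of the printed stretch, which lies within the capitals, so the motif is not in that copy's stretch. The windows of Bcl2a1c and Bcl2a1d do not differ from it. The capitals begin 82 bases before the RefSeq start of Bcl2a1b, 148 before that of Bcl2a1c, and 38 before that of Bcl2a1a and that of Bcl2a1d. The Bcl2a1d stretch overlaps a GENCODE exon of its own gene. The letters GCGTGGGCG stand in 201 of 32851 RefSeq promoter windows (0.612%), each running from 250 bases before a start to 50 after it, searched on both strands.

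Of the BH3-only genes, Bim and Puma carried a related EGR motif, GCGGGGGCG, on the plus strand near their starts. In these sequences the capitals mark the motif.
Bcl2l11 (chr2:128125978-128126007, plus strand): gtgattgggcGCGGGGGCGggggctcaact
Bbc3 (chr7:16309524-16309553, plus strand): ctggcgtcacGCGGGGGCGgggcgtgggag
The letters begin 50 bases before an annotated start of Bcl2l11 and 49 before one of Bbc3, and stand in 955 of all windows (2.91%). A second Bbc3 window held the FOXO motif TTGTTTAC, found in 403 windows (1.23%), and is shown because Foxo factors are known to act on Puma.
Bbc3 (chr7:16310082-16310111, plus strand): gtctggcgggtTTGTTTACaaacaatgggg
The NF-kB consensus was found in windows of Bcl2l1 and Bbc3 and in 2779 windows in all (8.46%). The AP-1 motif TGACTCA (1709 windows, 5.20%) and the CRE motif TGACGTCA (588 windows, 1.79%) were found in 0 windows of the 10 genes. Pmaip1 had no window in the table, Bcl2l1 and Bbc3 had 3 each, Bcl2l11 had 2 and the others 1. A match describes the letters only.

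In the GENCODE M21 annotation of GRCm38, Bcl2 is at chr1:106538178-106714274 on the minus strand, Bcl2l1 at chr2:152780668-152831728 on the minus strand, Mcl1 at chr3:95658788-95663176 on the plus strand and Bcl2a1b at chr9:89199209-89207827 on the plus strand. Bcl2l11 is at chr2:128126038-128162547 on the plus strand, Bax at chr7:45461697-45466898 on the minus strand, Bak1 at chr17:27019810-27029009 on the minus strand, Bbc3 at chr7:16308393-16318205 on the plus strand and Bid at chr6:120891930-120916853 on the minus strand. Some exons are shared with other genes. Bcl2a1b shares 401 exonic bases with Gm29094 on the same strand. The A1 copies are known to be near-identical, which was not measured here, so its values are uncertain as to the copy. The exons of Bid overlap Bcl2l13 by 628 bases, those of Bak1 overlap Ggnbp1 by 177 and 437 bases, and those of Bcl2 overlap an antisense gene by 558 bases, all on the opposite strand. Bax shares 192 bases with Gm45808 on the same strand. The library kit does not mark strand, so reads from such partners cannot be told apart.

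The libraries were checked against their labels before the members were read. Creld1 had a mean log2 value of 4.58 in fresh control and 4.10 in fresh cKO cells, 5.03 and 4.03 in unstimulated cells, and 4.74 and 4.38 in stimulated cells. All 3 cKO libraries lay below all 3 control libraries in unstimulated culture, with a difference of -0.999 ± 0.23 (SE, n = 3 a group, limma adjusted p = 0.103), while in the other conditions the libraries overlapped. Averaged over conditions the difference was -0.62 ± 0.13 (limma adjusted p = 0.344). The share of all tested genes separated in unstimulated culture was not counted. Those libraries did not overlap in GC slope either, a measure of base composition defined below (0.07 to 0.25 in control, -0.19 to -0.07 in cKO libraries). In each group the library of lowest slope also had the lowest Creld1 value. The part of base composition in the Creld1 differences was not tested. Which exons were deleted the sources used here do not say, and reads from exons that remain would still be counted. Cd4 averaged 12.74 on the log2 scale, Cd8a 1.59, and among deposited markers, 5 of 5 naive T cell, 3 of 9 CD8 T and NK cell, 2 of 7 B cell, 1 of 6 myeloid and 0 of 3 red cell genes reached the minimum. The 3 of the CD8 T and NK cell list were Klrd1 (7.82), Cd8b1 (6.41) and Prf1 (6.32). The 9 memory and effector markers, 6 of which reached the minimum, summed to linear values of 1837 to 1973 in fresh control and 1785 to 1936 in fresh cKO libraries. The sums were 1244 to 1319 in unstimulated control and 1203 to 1355 in unstimulated cKO libraries. They were 1214 to 1259 in stimulated control and 1259 to 1291 in stimulated cKO libraries, so the fresh sums were higher than the cultured ones. Prdm1 went against this, at 5.95 in fresh and 6.51 in unstimulated control cells, and 5.97 and 6.65 in cKO cells. All 5 regulatory T cell markers reached the minimum, with sums of 939 to 1061 in fresh, 699 to 816 in unstimulated and 725 to 962 in stimulated control libraries, although the gate removed CD25+ cells. In cKO libraries the sums were 857 to 1016 fresh, 668 to 712 unstimulated and 895 to 1005 stimulated. The stimulated sums thus overlapped the fresh ones in both genotypes. Tnfrsf18 went against the fall in the sums, at 7.56 in fresh and 8.31 in unstimulated control cells. Il2ra, which is among these markers, averaged 6.38 in unstimulated and 7.47 in stimulated cKO cells. The part of these cells in the results below was not tested. In these bulk libraries fewer cells of a type and less RNA per cell cannot be told apart.

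To compare genes with one another, linear values were divided by exon length. In fresh control cells Mcl1 stood far above the rest, at 1461 ± 143 linear units per kb (SD, n = 3). Bax followed at 180 ± 57.9, Bcl2 at 162 ± 13.6, Bcl2a1b at 134 ± 9.29 and Bcl2l11 at 120 ± 7.47 linear units per kb. Bak1 at 61.8 ± 6.21, Bbc3 at 45.1 ± 11.8 and Bid at 34.1 ± 2.03 made a middle tier, and Bcl2l1 at 16.0 ± 0.979 and Pmaip1 at 14.3 ± 1.66 were lowest. The libraries of these neighbours in the order overlapped: Bax and Bcl2, Bcl2a1b and Bcl2l11, Bak1 and Bbc3, Bbc3 and Bid, and Bcl2l1 and Pmaip1. Bcl2 and Bax message per unit length thus overlapped in fresh control cells, with little message for Bcl-xL, the guardian known to rise later in activation. The place of Bax is uncertain, since its libraries spanned 115 to 224 linear units per kb in fresh control and 72.3 to 274 in fresh cKO cells.

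The order shifted in culture. In unstimulated control cells Bcl2 dropped to 88.0 linear units per kb, below Bcl2l11 at 130 and Bcl2a1b at 99.8. Mcl1 stood at 1047 and Bax at 308, though Bax stood at 141 in unstimulated cKO cells. In stimulated control cells Bcl2a1b stood at 181 linear units per kb, above Bcl2l11 at 158 and Bcl2 at 99.4, although the libraries of Bcl2a1b and Bcl2l11 overlapped. Pmaip1 was the lowest in both cultures, at 7.96 and 7.88 linear units per kb. Reads shared between A1 copies would raise or lower the Bcl2a1b value.

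**Figure D1:**
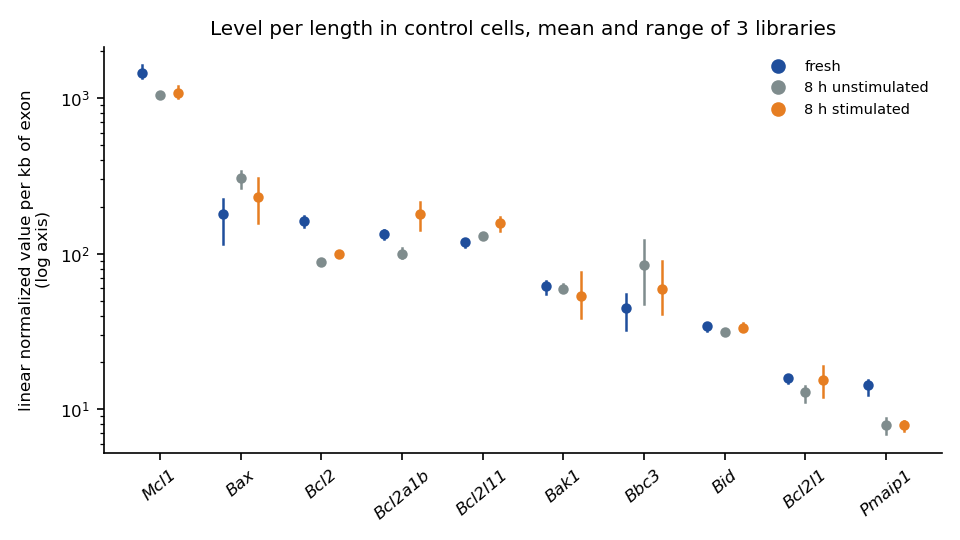
Linear normalized value per kb of exon (log axis) for the 10 genes in the 3 control groups; points are means and lines span the 3 libraries. Mcl1 is highest in each, at 1461 per kb in fresh cells, and Bcl2 moves from 162 in fresh to 88.0 in unstimulated cells.

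Rest in culture without stimulation lowered 2 of the 4 guardian messages, Bcl2 and Mcl1, in both genotypes, and that of Bcl2a1b in control cells. Bcl2 fell (a change of -45.5% in control and -49.2% in cKO cells), as did Mcl1 (-28.1% and -26.9%) and, among the BH3-only genes, Pmaip1 (Noxa, -44.5% and -44.6%). Bcl2l1 (Bcl-xL), Bcl2l11 (Bim), Bbc3 (Puma), Bid, Bax and Bak1 were not called in either genotype. In control cells 4 of the 10 genes were called lower and 0 higher by limma at an adjusted p of 0.05, against 14.1% of all tested genes called lower and 14.9% called higher. In cKO cells 3 were called lower and 0 higher, against 11.4% lower and 10.7% higher. The median difference over the 10 genes was -0.23 in control and -0.28 in cKO cells, beside 0.04 and -0.02 over all tested genes.

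Bcl2, the guardian on which naive T cells depend, read 10.64, 10.40 and 10.55 (log2) in the fresh control libraries and 10.69, 10.83 and 10.49 in the fresh cKO libraries. After unstimulated culture it read 9.63, 9.72 and 9.62 in control and 9.66, 9.77 and 9.65 in cKO libraries. Every cultured library lay below every fresh one. The difference was -0.88 ± 0.08 in control cells (SE, n = 3 a group, 95% interval -1.05 to -0.70, a change of -45.5%, limma adjusted p = 2.23e-06). In cKO cells it was -0.98 ± 0.08 (95% interval -1.15 to -0.80, a change of -49.2%, limma adjusted p = 7.66e-07). The 2 culture effects differed by -0.10 ± 0.12 (95% interval -0.35 to 0.15, limma adjusted p = 0.864) and no difference between genotypes was detected within that interval.

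Mcl1, a short-lived guardian, read 12.44, 12.23 and 12.18 in fresh control libraries and 11.83, 11.80 and 11.78 after unstimulated culture. In cKO cells the fresh libraries read 12.59, 12.67 and 12.13 and the unstimulated ones 12.04, 11.97 and 12.01. The groups did not overlap in either genotype, though the third fresh cKO library was close to the cultured ones. The fall was -0.48 ± 0.12 in control (a change of -28.1%, limma adjusted p = 0.00828) and -0.45 ± 0.12 in cKO cells (-26.9%, limma adjusted p = 0.0128). The cKO call was lost with quantile normalization (-0.32, adjusted p = 0.062), in a fit of only the groups compared (adjusted p = 0.11), and without the first or the second fresh cKO library (adjusted p = 0.0596 and 0.0605).

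Bcl2a1b, the A1 guardian, read 6.85, 6.66 and 6.81 in fresh control libraries and 6.30, 6.26 and 6.47 after unstimulated culture, a difference of -0.43 ± 0.15 (a change of -25.7%, limma adjusted p = 0.0458). In cKO cells it read 7.05, 7.06 and 6.66 fresh and 6.39, 6.61 and 6.64 unstimulated, a difference of -0.38 ± 0.15 that was not called (limma adjusted p = 0.0909). All cultured libraries lay below all fresh ones in both genotypes, though the share of all tested genes so separated was not counted. The control call lay near the threshold: it was lost without a filter on low values (adjusted p = 0.057) and in 12 of 18 fits that left out 1 library, with adjusted p-values up to 0.133 without the first fresh control library. The remaining guardian, Bcl2l1 (Bcl-xL), ranged from 5.67 to 6.43 over all 18 libraries, with group means of 6.19 in fresh control, 6.03 in fresh cKO, 5.87 in unstimulated control, 5.91 in unstimulated cKO, 6.12 in stimulated control and 6.17 in stimulated cKO cells. It was called in 0 of the 12 comparisons by limma.

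Pmaip1 (Noxa), which binds Mcl1 and A1, read 5.36, 5.41 and 5.09 in fresh control libraries and 4.24, 4.59 and 4.48 in unstimulated ones. In cKO libraries it read 5.41, 5.45 and 5.32 fresh and 4.72, 4.32 and 4.59 unstimulated. Fresh and cultured libraries were separate in both genotypes. The difference was -0.85 ± 0.14 in control (a change of -44.5%, limma adjusted p = 3.22e-04) and -0.85 ± 0.14 in cKO cells (-44.6%, limma adjusted p = 3.39e-04). Log2 values understate a fold change where the transformation compresses low values. The SD between libraries of a group had a median of 0.0846 over genes averaging under 0. It was 0.228 over those averaging 4 to 6 and 0.188 over those averaging 6 to 8. Pmaip1 averaged 4.77 over the 18 libraries, so these SDs do not show compression at its level. Whether its fall is understated was not tested.

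**Figure D2:**
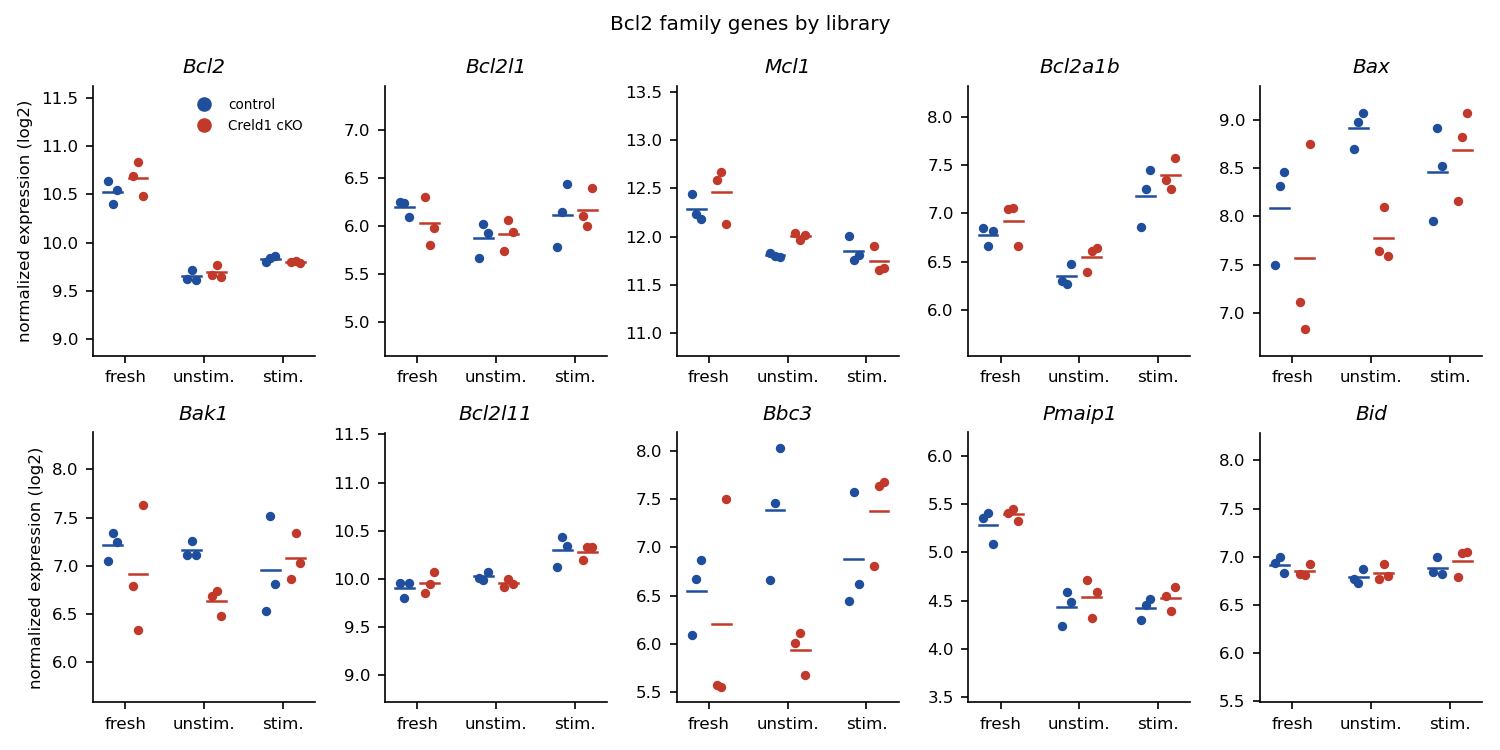
Deposited log2 value of each of the 10 genes in all 18 libraries, in 6 groups by condition and genotype; points are libraries and short bars are group means. Bcl2 and Pmaip1 step down from fresh to cultured cells in both genotypes, Bcl2a1b is highest in stimulated cells, and Bax and Bbc3 scatter widely within groups.

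Stimulation through CD3 and CD28 for 8 h raised A1. Bcl2a1b was the 1 of 10 genes called higher against unstimulated culture in each genotype and 0 were called lower, beside 0.313% of tested genes called higher and 0.0368% lower in control cells and 0.276% higher and 0.00919% lower in cKO cells. At an unadjusted p under 0.05, limma passed 3 of the 10 genes in control and 5 in cKO cells, of 1233 and 2511 tested genes in all. These comparisons share the unstimulated libraries with the culture comparisons above.

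Bcl2a1b read 6.85, 7.25 and 7.45 in stimulated control libraries, against 6.30, 6.26 and 6.47 unstimulated. In cKO cells it read 7.35, 7.26 and 7.58 stimulated, against 6.39, 6.61 and 6.64. Every stimulated library was above every unstimulated one. The difference was 0.84 ± 0.15 in control (95% interval 0.51 to 1.16, a rise of 78.7%, limma adjusted p = 0.0280) and 0.85 ± 0.15 in cKO cells (0.52 to 1.17, 80.1%, limma adjusted p = 0.0246). The responses of the genotypes differed by 0.01 (95% interval -0.45 to 0.47, limma adjusted p = 0.975). Both calls rest on few libraries. In control cells the call was lost without any 1 of the 3 unstimulated control libraries or the second or the third stimulated control library (adjusted p = 0.0636 to 0.208) and in a fit of only the groups compared (adjusted p = 0.15), and in cKO cells without any 1 of the 6 cultured cKO libraries (adjusted p = 0.0535 to 0.203) and with quantile normalization (0.72, adjusted p = 0.094).

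The other A1 copy among the tested genes was not called. Bcl2a1d, at group means of 4.23 unstimulated and 4.82 stimulated in control and 4.34 and 5.00 in cKO cells, differed by 0.59 ± 0.19 (limma adjusted p = 0.228) and 0.66 ± 0.19 (limma adjusted p = 0.156), with all stimulated libraries above all unstimulated ones. Since the copies share sequence, these values are not independent of those of Bcl2a1b. The share of all tested genes separated in this way was not counted. Bcl2a1a and Bcl2a1c were not analysed here.

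Bcl2l11 encodes Bim, the BH3-only protein that kills cytokine-starved and chronically stimulated T cells. It read 10.01, 9.99 and 10.08 in unstimulated and 10.13, 10.44 and 10.34 in stimulated control libraries. In cKO cells it read 9.916, 9.997 and 9.954 unstimulated and 10.20, 10.33 and 10.33 stimulated. All stimulated libraries lay above all unstimulated ones, with differences of 0.28 ± 0.08 in control (limma adjusted p = 0.200) and 0.33 ± 0.08 in cKO cells (limma adjusted p = 0.116), neither of which was called. Against fresh cells, in which it read 9.96, 9.80 and 9.96 (control) and 9.86, 9.95 and 10.07 (cKO), stimulated cells were called higher, by 0.40 ± 0.08 in control (a rise of 31.7%, limma adjusted p = 0.00332) and 0.33 ± 0.08 in cKO cells (25.3%, limma adjusted p = 0.00936). The cKO call was lost in a fit of only the groups compared (adjusted p = 0.092). How many of all tested genes had every stimulated library above every unstimulated one was not counted.

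Bcl2 remained below its fresh level after stimulation. Stimulated libraries read 9.80, 9.84 and 9.86 in control and 9.80, 9.81 and 9.79 in cKO cells, all below the fresh libraries. Stimulated libraries were all above unstimulated ones in both genotypes, though the share of all tested genes so separated was not counted. The difference was 0.18 ± 0.08 in control (limma adjusted p = 0.439) and 0.11 ± 0.08 in cKO cells (limma adjusted p = 0.390), and neither was called. Mcl1 read 12.003, 11.753 and 11.806 in stimulated control and 11.90, 11.65 and 11.68 in stimulated cKO libraries, where the difference from unstimulated cells was -0.26 ± 0.12 and not called (limma adjusted p = 0.212). Pmaip1 remained at its cultured level, at 4.30, 4.46 and 4.52 in stimulated control and 4.54, 4.39 and 4.64 in stimulated cKO libraries.

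Set against fresh cells, stimulated cells differed in 4 of the 10 genes in control and 6 in cKO cells. Limma called 1 gene higher (9.58% of all tested genes) and 3 lower (9.26%) in control, and 3 higher (14.5%) and 3 lower (15.7%) in cKO cells. These comparisons reuse the fresh and stimulated libraries of the comparisons above. Bcl2 was lower by -0.70 in control (a change of -38.4%, adjusted p = 2.48e-05) and -0.87 in cKO cells (-45.3%, adjusted p = 2.78e-06). Mcl1 was lower by -0.43 in control (adjusted p = 0.0200) and -0.72 in cKO cells (-39.1%, adjusted p = 5.02e-04), and Pmaip1 by -0.86 (adjusted p = 3.62e-04) and -0.87 (adjusted p = 2.80e-04). The control Mcl1 call was lost with quantile normalization (-0.34, adjusted p = 0.059) and without the first fresh control library or the second or the third stimulated control library (adjusted p = 0.0857, 0.0775 and 0.0671). Bcl2a1b was called higher in cKO cells (0.47, a rise of 38.6%, adjusted p = 0.0293) and not in control cells (0.41, adjusted p = 0.0747). The cKO call was lost with quantile normalization (adjusted p = 0.13), in a fit of only the groups compared (adjusted p = 0.12), and without the third fresh or the third stimulated cKO library (adjusted p = 0.0761 and 0.128).

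**Figure D3:**
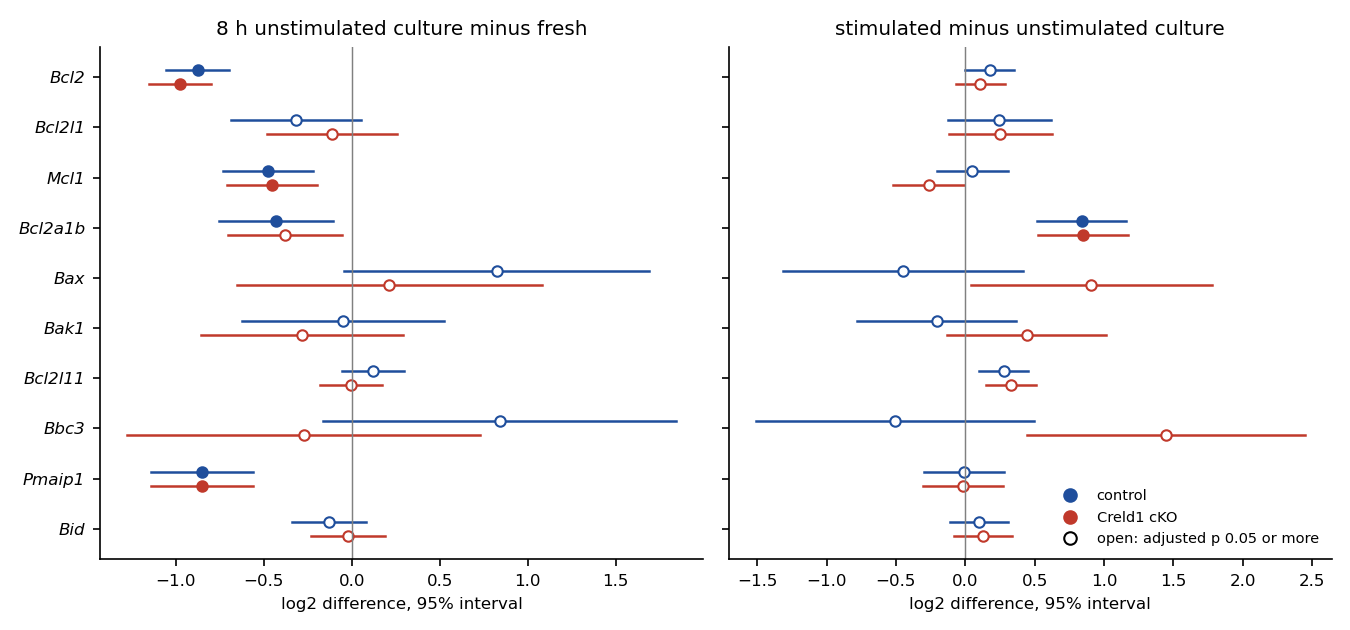
Log2 difference with its 95% interval for each of the 10 genes, for unstimulated culture minus fresh and stimulated minus unstimulated culture, in control and cKO cells; filled points were called by limma at an adjusted p under 0.05. Bcl2, Mcl1 and Pmaip1 are called lower for culture in both genotypes, and Bcl2a1b at 0.84 and 0.85 is the gene called for stimulation.

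Within single libraries, the Bim message moved from below to above the Bcl2 message. Their log2 difference, Bcl2l11 minus Bcl2, was -0.69, -0.60 and -0.58 in fresh control and -0.83, -0.88 and -0.42 in fresh cKO libraries. It was 0.39, 0.27 and 0.46 in unstimulated control and 0.25, 0.23 and 0.31 in unstimulated cKO libraries. In stimulated libraries it was 0.33, 0.60 and 0.49 in control and 0.39, 0.53 and 0.54 in cKO cells. All 6 fresh libraries were thus below 0 and all 12 cultured ones above it. The values are not corrected for length, so only the change between groups can be read, and it restates the Bcl2 and Bcl2l11 differences given above.

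**Figure D4:**
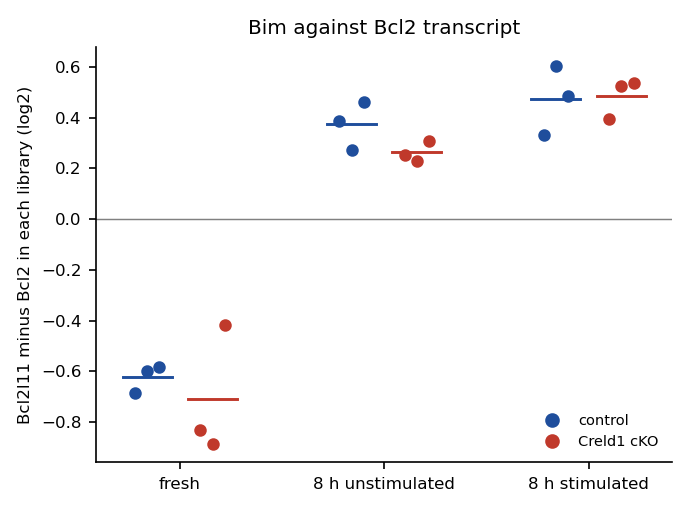
Log2 value of Bcl2l11 minus that of Bcl2 in each of the 18 libraries, by group; points are libraries and bars are group means. Fresh libraries lie between -0.88 and -0.42 and cultured libraries between 0.23 and 0.60.

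The other contrasts between members chosen for description were less separate. Pmaip1 minus Mcl1 had a mean of -7.00 in fresh control, -7.37 in unstimulated control and -7.43 in stimulated control cells, since both messages fell. Bcl2l1 minus Bcl2 averaged -4.34 in fresh and -3.78 in unstimulated control cells. Bax minus Bak1 averaged 0.88 in fresh, 1.75 in unstimulated and 1.51 in stimulated control cells and 0.65, 1.14 and 1.61 in cKO cells. Fresh (0.32 to 1.12) and unstimulated (0.96 to 1.36) cKO libraries overlapped, and a change in the ratio was not tested. Both genes also moved with base composition, as described below. Bid, the BH3-only protein cleaved by caspase 8 downstream of death receptors, was the steadiest member, from 6.73 to 7.05 over all 18 libraries, and was called in 0 of the 12 comparisons.

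The effectors and Puma scattered more than any other member. Bax read 7.50, 8.31 and 8.47 in fresh control libraries, 7.11, 6.83 and 8.75 in fresh cKO libraries, 8.70, 8.98 and 9.07 in unstimulated control and 7.65, 8.10 and 7.59 in unstimulated cKO libraries. Stimulated libraries read 7.95, 8.92 and 8.52 in control and 8.16, 8.82 and 9.07 in cKO cells. The fresh cKO libraries of this gene alone spanned 6.83 to 8.75, against 6.83 to 9.07 over all 18.
Bbc3 (Puma), a target of p53 and Foxo factors, read 6.09, 6.68 and 6.87 in fresh control, 5.57, 5.55 and 7.50 in fresh cKO, 6.66, 7.46 and 8.03 in unstimulated control and 6.01, 6.11 and 5.68 in unstimulated cKO libraries. In stimulated cells it read 6.44, 7.57 and 6.62 in control and 6.81, 7.64 and 7.68 in cKO libraries. It repeats the Bax pattern, with the third fresh cKO library far above the other 2. Bak1 ranged from 6.33 to 7.63, and both ends were fresh cKO libraries. The SD within groups was larger than that of 98.2% of tested genes for Bax, 99.3% for Bbc3 and 88.0% for Bak1.

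Base composition moved with these 3 genes. Their transcripts have a GC content of 58.4% (Bax), 57.6% (Bak1) and 68.6% (Bbc3), against a median of 50.3% over tested genes. For each library a GC slope was taken, the slope of the log2 deviations of all tested genes from their means on transcript GC content, per SD of GC content. Group means of the slope were -0.12 in fresh cKO, 0.16 in unstimulated control, -0.13 in unstimulated cKO and 0.09 in stimulated cKO cells, and the 3 fresh cKO libraries had slopes of -0.20, -0.32 and 0.17. The library with the lowest slope in its group was the lowest library for Bax and Bbc3 in 6 of 6 groups and for Bak1 in 5 of 6, and 14.3% of tested genes did so in 6 of 6. Mcl1 went the other way, with r of -0.839 with Bax and -0.723 with Bbc3 over the 18 libraries. Its transcripts have a GC content of 54.9%, also above the median over tested genes. At the 3 fresh cKO slopes above Mcl1 read 12.59, 12.67 and 12.13. The part of base composition in the Mcl1 differences between groups was not tested beyond the covariate fits given below.

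**Figure D5:**
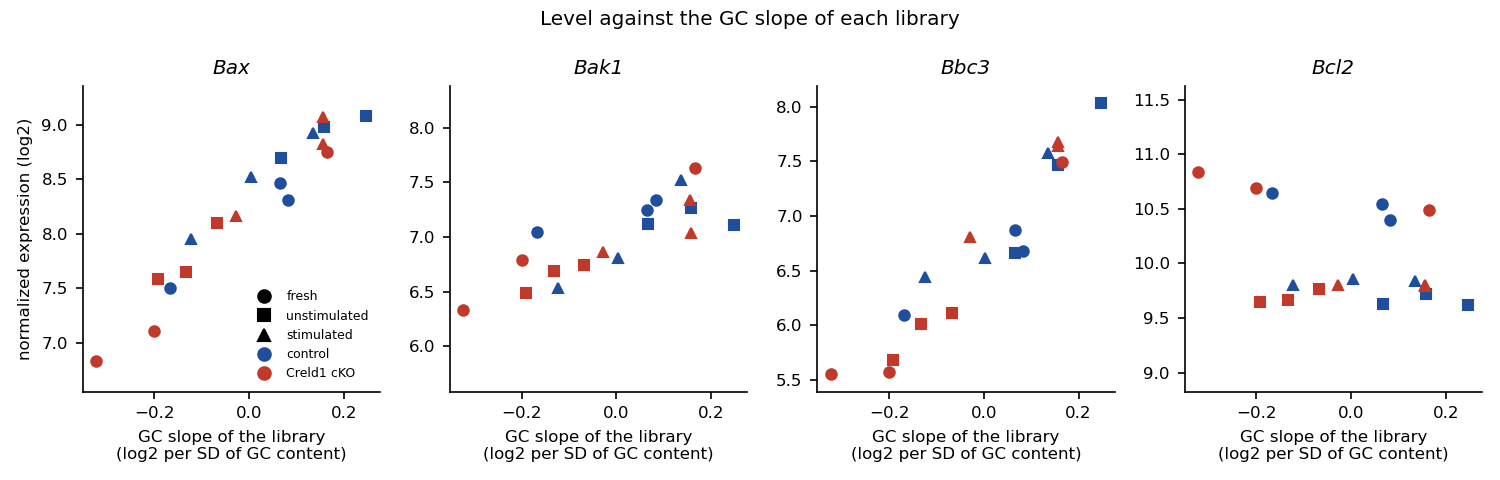
Log2 value of Bax, Bak1, Bbc3 and, for contrast, Bcl2 against the GC slope of the library (log2 per SD of GC content); each point is 1 of 18 libraries, its shape the condition and its colour the genotype. The library with the lowest slope, -0.32, has the lowest Bax, Bak1 and Bbc3, and the one with the highest, 0.25, the highest Bax and Bbc3, while Bcl2 separates by condition.

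The genotype comparison called 0 of the 10 genes in fresh, unstimulated or stimulated cells, and 0 when averaged over conditions, by limma. Over all tested genes it called 0.00919% in fresh, 0% in unstimulated and 0% in stimulated cells and 0.0184% when averaged. At an unadjusted p under 0.05 it passed 0, 2, 0 and 0 of the 10 genes, of 429, 3606, 160 and 901 tested genes. The lowest adjusted p of a member was 0.790 in fresh, 0.103 in unstimulated and 0.974 in stimulated cells. The guardians overlapped between genotypes in every condition with 1 exception, Mcl1 in unstimulated culture. There all cKO libraries (11.97 to 12.04) lay above all control libraries (11.78 to 11.83). How many of all tested genes were separated in this way was not counted, so this is not a result particular to Mcl1. These libraries also differed in GC slope, as given below, and its part in the separation was not tested.

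The 2 genes with an unadjusted p under 0.05 were Bax and Bbc3, in unstimulated culture. Bax was lower in cKO than in control cells by -1.14 ± 0.41 (95% interval -2.005 to -0.271, limma adjusted p = 0.103) and Bbc3 by -1.45 ± 0.47 (-2.45 to -0.45, limma adjusted p = 0.103). All 3 cKO libraries lay below all 3 control libraries for both, and for Bak1 as well, though the share of all tested genes so separated was not counted. The GC slopes of these libraries did not overlap either, at 0.07 to 0.25 in control and -0.19 to -0.07 in cKO libraries. Fitted with the slope as a covariate, the differences were -0.03 ± 0.12 for Bax (adjusted p = 0.969), 0.12 for Bak1 and -0.22 ± 0.19 for Bbc3 (adjusted p = 0.881). Without the third fresh cKO library, whose slope of 0.17 stands apart from its group, limma called both Bax (adjusted p = 0.0183) and Bbc3 (adjusted p = 0.0181), together with 26.1% of all tested genes. In a fit of only the groups compared it called both (adjusted p = 0.0035 and 0.0082), with 34.4% of tested genes. What part base composition has in the genotype difference was not tested beyond this covariate.

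The genotype by stimulation interaction called 0 of the 10 genes (0.00919% of tested genes), and the genotype by culture interaction 0 (0% of tested genes). At an unadjusted p under 0.05 limma passed 2 and 0 of the 10, of 3049 and 545 tested genes. The 2 were again Bax, at 1.36 ± 0.58 (adjusted p = 0.168), and Bbc3, at 1.95 ± 0.67 (adjusted p = 0.166). When the GC slope entered as a covariate the values were -0.09 for Bax, a turn of sign, and 0.33 for Bbc3. Without the third fresh cKO library both were called (adjusted p = 0.0427 and 0.0416), with 15.3% of tested genes.

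In cKO cells Bax and Bbc3 were higher after stimulation than after unstimulated culture by 0.91 ± 0.41 and 1.44 ± 0.47, neither of which was called (limma adjusted p = 0.212 and 0.189). Fitted with the slope, they were 0.04 for Bax and 0.48 ± 0.18 for Bbc3 (adjusted p = 0.286). Against fresh cKO cells, stimulated cKO cells were called higher in Bax by 1.12 ± 0.41 (a rise of 118%, limma adjusted p = 0.0485), although the libraries overlapped. This value was 0.30 ± 0.11 with the slope as a covariate (adjusted p = 0.0354), and from 0.75 to 1.71 when 1 library was left out, with the call lost in 13 of 18 such fits. Its highest value came without the third fresh cKO library. The call was also lost without a filter on low values, without a variance trend and in a fit of only the groups compared (adjusted p = 0.0556, 0.0533 and 0.186). With the slope as a covariate Bax was also called higher in control cells, stimulated against fresh, by 0.33 ± 0.09 (adjusted p = 0.00916). Bbc3 was 1.17 ± 0.47 higher in stimulated than in fresh cKO cells, which was not called (limma adjusted p = 0.0707). It was called without the first stimulated cKO library (1.45, adjusted p = 0.0472) and without the third fresh cKO library (1.82, adjusted p = 0.00133), a fit that called 53.4% of tested genes. Fitted with the slope it was 0.25 ± 0.18 (adjusted p = 0.289).

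The genes that carried the culture result were called under this covariate too. Bcl2 fell by 0.81 in control and 0.98 in cKO cells on the log2 scale in unstimulated culture, and Pmaip1 by 0.83 and 0.85. Mcl1 moved most, to -0.31 in control culture and to -0.50 for stimulated against fresh cKO cells, both still called. Bcl2l11 was called higher in stimulated than in unstimulated control cells under this fit, by 0.33 (adjusted p = 0.0097).

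Genes whose values ran most closely with each member over the 18 libraries were found by Pearson's r, given as a description. The libraries fall into groups, so a shared response to culture is enough to give a high r. Bcl2 ran with Hspa5 (r = 0.991), the endoplasmic reticulum chaperone BiP, and with Cnbp (0.989) and Stk17b (0.984). Hspa5 itself averaged 12.37 in fresh, 10.75 in unstimulated and 11.06 in stimulated control cells. Mcl1 ran with Samd9l (r = 0.992), Kbtbd2 (0.988) and Msl2 (0.987). Pmaip1 ran with 3 genes known to respond to interferon, Oas2 (r = 0.955), Lgals9 (0.953) and Rnf213 (0.953), of which Oas2 averaged 8.22 in fresh, 6.20 in unstimulated and 6.20 in stimulated control cells.

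Bcl2a1b and Bcl2l11 had their highest group means after stimulation in both genotypes. Bcl2a1b ran with Slamf1 (r = 0.927), Il2ra (0.918) and Sla (0.906), and Il2ra, the high-affinity interleukin 2 receptor chain, averaged 5.95 in unstimulated and 7.15 in stimulated control cells. Bcl2l11 ran with Egr2 (r = 0.946), Ccr4 (0.931) and Srgn (0.927). Egr2, an EGR family factor induced by the receptor, averaged 7.16 in unstimulated and 8.30 in stimulated control cells. Bax ran with Wiz (r = 0.994), Tab1 (0.991) and Rnf220 (0.990), Bak1 with Pml (0.960), Ndufv3 (0.943) and Mob3a (0.934), and Bbc3 with Dvl1 (0.981), Emc10 (0.978) and Mif (0.978). Bcl2l1 and Bid had no close neighbour, the highest being Gfod1 at 0.799 and Eif4g1 at 0.797. Among the members themselves the highest r was that of Bax and Bbc3 (0.935), followed by Bcl2 and Pmaip1 (0.926) and Bcl2 and Mcl1 (0.866), while Mcl1 and Bax ran against each other (-0.839).

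Other genes of the death machinery were called in culture, where 14.9% of tested genes in control and 10.7% in cKO cells were called higher and 14.1% and 11.4% lower. Of 19 other Bcl2 family genes listed, 10 were tested, and in unstimulated culture of control cells 2 were called higher and 1 lower, against 0 and 0 in cKO cells. Bad, a BH3-only protein controlled by phosphorylation, rose by 0.82 ± 0.28 (adjusted p = 0.0374), Bnip3 by 0.39 (adjusted p = 0.0397), and Bnip1 fell by 0.33 on the log2 scale (adjusted p = 0.0260). The list's median was 0.23 in control and 0.13 in cKO cells. Of the 18 caspase, apoptosome and mitochondrial release genes, all tested, 6 were called higher and 1 lower in control and 3 higher and 2 lower in cKO cells, with medians of 0.08 and 0.06. Casp9, the initiator caspase of the mitochondrial pathway, rose by 0.74 ± 0.12 in control (adjusted p = 3.37e-04) and was 0.77 higher in cKO cells, where it was called too. Cycs, which encodes cytochrome c, fell by 0.61 in control (adjusted p = 0.0388) and by 0.63 in cKO cells on the log2 scale. Htra2, a mitochondrial protease released with it, rose by 0.52 and Casp6 by 0.51 in control cells. In cKO cells their differences were 0.12 and 0.01, and neither was called. Bad, Htra2 and Casp6 had their highest group means in unstimulated control cells, the group of highest mean GC slope (0.16). The part of base composition in these rises was not tested.

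Of 5 inhibitor of apoptosis genes, 1 was called lower in control cells and 1 higher and 1 lower in cKO cells in unstimulated culture, with medians of -0.13 and -0.0030. Birc2, a ubiquitin ligase of tumour necrosis factor receptor signalling, fell by 0.64 in control (adjusted p = 0.00303) and 0.45 in cKO cells on the log2 scale. Of 13 tested death receptor and necroptosis genes of 14, 1 was called higher and 5 lower in control, and 1 higher and 4 lower in cKO cells, with medians of -0.19 and -0.28. Tnfrsf10b, the TRAIL receptor, fell by 0.67 in control (adjusted p = 7.39e-04) and 0.52 in cKO cells. Fadd, the adaptor that recruits caspase 8, rose by 0.58 in control (adjusted p = 8.06e-04) and 0.37 in cKO cells. Ripk3, the necroptosis kinase, and Fasl, the Fas ligand, both fell by 0.58 in control cells, and their differences in cKO cells were -0.41 and -0.33 and not called.

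Among 23 genes that act on the Bcl2 family, 3 were called higher and 4 lower in control and 1 higher and 3 lower in cKO cells in unstimulated culture, with medians of -0.03 and -0.14. In control cells these shares of 23 genes are close to the 14.9% higher and 14.1% lower of all tested genes, so the counts say nothing particular to the list. Atf4, a stress-responsive transcription factor that acts on Noxa, fell by 0.91 in control (adjusted p = 3.42e-06) and 1.15 in cKO cells on the log2 scale. Foxo1, which sustains Il7r and acts on Bim, fell by 0.76 in control (adjusted p = 1.88e-05) and 0.62 in cKO cells. Il7r itself was called higher in both genotypes. It averaged 13.19 in fresh and 13.69 in unstimulated control cells, and 13.37 and 14.06 in cKO cells. Fbxw7, the ligase subunit that marks Mcl1 for destruction, fell by 0.95 in control cells (adjusted p = 0.0488), close to the threshold, and its difference in cKO cells was -0.23. Stat5b, which carries the interleukin 7 signal to Bcl2, rose by 0.78 in control cells and its difference in cKO cells was 0.26. Its highest group mean was in unstimulated control cells, the group of highest mean GC slope (0.16). In unstimulated culture it differed between genotypes by -0.68 (limma adjusted p = 0.103), and the part of base composition in its rise was not tested. Limma called 0 genes of each of these 5 lists for stimulation in either genotype and 0 for genotype in any condition.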

How the data were processed

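RNA sequencing of sorted naive CD4+ T cells gave 18 libraries in 6 groups of 3, grouped by title. Per the labels' protocols, each TruSeq version 2 library was made from 10 ng of RNA and read as 75 bp single ends. The submitters' processing notes name CASAVA 1.8, HISAT2 2.1.0, SAMtools 1.4, Partek 6.6, DESeq2 and mm10, without saying how each was used. The authors deposited normalized log2 values for 15137 symbols. The sources used here do not state their transformation or annotation. The values themselves point to base 2, with linear sums per library of 6782465 to 7419367. Counts were not used here and the depth is unknown, so no counting interval is given.

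The deposited values of 10877 genes (linear value of at least 10 in 3 of 18 libraries) were fitted with limma 3.58.1 in R 4.3.3, in 1 model of 6 group means with trended empirical Bayes moderation, two-sided tests, Benjamini-Hochberg adjustment over all tested genes and a threshold of 0.05. The script was tested on simulated data. GENCODE M21 matched 15007 symbols, and 99.1% of tested genes had a GC content. The members, lists and alternatives were chosen with earlier results of these data known. Named beside the 10 members were, per list, the 4 genes with the largest difference among those called in control cells for stimulation or for culture, the A1 copies, the 3 genes of highest Pearson r with each member, and Creld1. Marker genes such as Il7r were named as well. Replicates are numbered in accession order. Alternatives were a pseudocount of 5, no filter, a minimum of 50, other normalizations, no variance trend, fewer samples, a GC covariate, a block and leaving out libraries. Sequences were read from the RefSeq promoter table.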

Additional observations from a re-analysis of the deposited data

How the results depend on the processing

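The 19 called differences of the 10 genes kept their sign in every alternative run. They kept their call in 173 values from other settings and lost it in 13, and kept it in 299 values that left out 1 library and lost it in 43. Bcl2 and Pmaip1 kept theirs throughout, Pmaip1 not being tested at a minimum of 50. The planned count tools were not run, as the values are not counts. The cause of a changed count was not tested.

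Of the 10 genes, a fit of only the groups compared called 4 for genotype in unstimulated culture (34.4% of all tested genes), 0 for stimulation in control (0.0644%) and 5 in cKO cells (21.6%), 3 for stimulated against fresh cKO cells (6.92%) and 2 for the genotype by stimulation interaction (21.8%). The GC slope as a covariate gave 2 for stimulation in control cells (2.95%) and 5 for culture in cKO cells (45.4%), and the replicate block with the GC slope also gave 2 (2.22%) and 5 (46.1%). Quantile normalization gave 0 for stimulation in cKO cells.

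No label pairs the libraries by number. The replicate block, by runs of library numbers in the titles, called 2 genes for genotype in unstimulated culture, Bax (adjusted p = 0.0496) and Bbc3 (adjusted p = 0.0485), with 8.15% of all tested genes, and with the GC slope added it called 0 of the 10 and 0% of all. The block also called Bbc3 for stimulated against fresh cKO cells (adjusted p = 0.0313), and with the GC slope it lost Bcl2a1b for culture in control cells (-0.29, adjusted p = 0.11).

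Leaving out 1 library gave 0 to 2 called genes for genotype in fresh cells, unstimulated cells and averaged, 0 to 0 in stimulated cells, 0 to 1 and 0 to 3 for stimulation in control and cKO cells, 3 to 5 and 2 to 4 for culture, 3 to 5 and 4 to 7 for stimulated against fresh cells, 0 to 2 for the stimulation and 0 to 0 for the culture interaction. Without the third fresh cKO library, Bax (-1.12) and Mcl1 (0.35) were called for genotype in fresh cells, with 10.98% of all tested genes.

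The Bcl2a1b stimulation interaction of 0.01 turned to -0.23 with quantile normalization and to -0.0427 with median centring, and ran from -0.15 to 0.14 when 1 library was left out. The Bax stimulation interaction turned to -0.0910 with the GC slope and -0.0038 with the block and the GC slope. The depth is unknown, so what depth limits cannot be told from these values.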
